A study of Mus musculus with 12 samples.

Results

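The tumour suppressor p53 and 9 of its direct targets in cell cycle arrest and cell death were followed across 4 groups of splenic erythroblasts. The 10 genes, taken by their names, were Cdkn1a, Mdm2, Eda2r, Fas, Ccng1, Aen, Phlda3, Trp53inp1, Bbc3 and Trp53 itself. Of these, 9 were among the 30692 genes measured, and 8 were among the 20107 bright enough to be tested. Trp53 was not analysed here, and Fas was measured but too dim to test.

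The erythroblasts, the nucleated precursors of red cells, came from spleens of male mice, taken on day 3 after treatment with phenylhydrazine. The drug lyses circulating red cells and drives the spleen to make new ones. Every mouse received it, so each comparison lies within stress erythropoiesis. The mice had eaten a selenium deficient or a selenium adequate diet for 3 months beforehand. The 4 groups, of 3 arrays each, were deficient basophilic erythroblasts, adequate basophilic erythroblasts, deficient proerythroblasts and adequate proerythroblasts. The proerythroblast is the earlier stage and the basophilic erythroblast the next. Total RNA (5 ng a sample) was hybridised to Affymetrix whole-transcript arrays, and all values below are log2 expression values. The labels do not say whether arrays of a group came from different mice, nor give strain or age, so p-values measure the spread between these samples.

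In unstressed cells p53 is kept scarce by Mdm2, a ubiquitin ligase that marks it for destruction. DNA damage, nucleolar stress or oxidative stress stabilises p53, which then raises a set of genes that includes Mdm2, so that the response limits itself. In the red cell lineage, p53 is known from disorders of ribosome production, in which its activation halts or kills erythroid precursors. The best known target, Cdkn1a, encodes p21, an inhibitor of the cyclin-dependent kinases that drive the cell cycle. It also rises in many lineages as cells leave the cycle to mature.

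The 12 arrays were not equally alike. The lowest correlation with another array of its group was 0.936 for deficient basophilic replicate 2, against 0.976 or more in the other groups, and the replicate 2 arrays of both basophilic groups had the highest background medians, at 4.70 (deficient) and 4.19 (adequate), against 3.31 to 3.80 elsewhere. Markers of erythroblast identity lay well above the median of all values, 5.3. They averaged 10.08 to 10.82 in deficient basophilic arrays and 10.48 to 10.92 in adequate basophilic arrays. The same markers averaged 10.19 to 10.43 in deficient proerythroblast arrays and 9.60 to 9.91 in adequate proerythroblast arrays. Over the 12 arrays B cell markers averaged 6.79 to 8.36, neutrophil markers 6.08 to 8.09, megakaryocyte markers 6.31 to 7.0, macrophage markers 5.54 to 6.73 and T and NK cell markers 5.17 to 6.11. Of 5 tested megakaryocyte markers, only Itga2b rose with the deficient diet in proerythroblasts (0.75, SE 0.17, limma adjusted p = 0.0324) and over both stages (0.82, SE 0.12, adjusted p = 0.00585). The others passed in neither, with differences in proerythroblasts of -0.28 for Gp9, -0.19 for Pf4, 0.18 for Vwf and 0.13 for Itgb3. Of all tested genes 1.25% rose in proerythroblasts and 0.95% over both stages. The part of Itga2b in the results was not tested. One description, that of deficient basophilic replicate 3, names proerythroblasts, against its title and cell type label, and the array was kept as basophilic.

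Cdkn1a, on chromosome 17, rose in deficient proerythroblasts, and its values in both stages were higher in every deficient array than in every adequate array of the same stage. RefSeq gives it 2 annotated starts in GRCm38.p6. The window around the first, from 250 bases before it to 50 after it (chr17:29090729-29091028, plus strand), is shown because it was the only one of the 13 windows read for 9 of the genes that held a pair of p53 half-sites close enough to form a full site. The capitals mark the half-sites.

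Cdkn1a, first start: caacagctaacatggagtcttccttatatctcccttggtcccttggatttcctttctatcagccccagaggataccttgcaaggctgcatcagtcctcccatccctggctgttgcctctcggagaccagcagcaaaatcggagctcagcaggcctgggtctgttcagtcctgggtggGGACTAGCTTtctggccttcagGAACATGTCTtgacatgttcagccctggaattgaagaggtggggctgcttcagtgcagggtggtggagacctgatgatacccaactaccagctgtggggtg

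A half-site was an exact match to the p53 half-site consensus of 10 bases, which reads alike on both strands. A full site was 2 of them spaced by 0 to 13 bases. The 10 bases right after the second half-site in capitals miss the consensus only at their first letter, so they stay in lower case. Of 32851 mouse promoter windows of the same length, 8.36% held a half-site and 0.0731% a full site. The window at the second Cdkn1a start held neither. A match describes letters and not binding, which was not measured.

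In basophilic erythroblasts, Cdkn1a had values of 10.03, 7.97 and 9.51 in deficient replicates 1, 2 and 3, against 7.65, 6.87 and 7.66 in adequate replicates 1, 2 and 3. In proerythroblasts it had values of 10.43, 8.16 and 9.72 in deficient replicates 1, 2 and 3, against 6.67, 6.59 and 6.76 in adequate replicates 1, 2 and 3. Replicate 2 was the lowest deficient array in both stages, and the deficient groups spread far more (SD 1.07 basophilic, 1.16 proerythroblast) than the adequate groups (SD 0.45 basophilic, 0.09 proerythroblast).

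**Figure D1:**
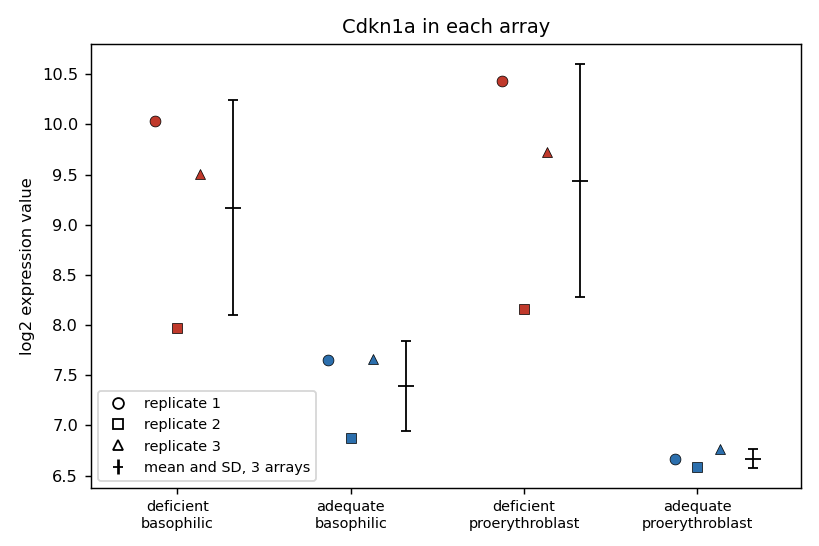
Log2 expression value of Cdkn1a (y axis) in each of the 12 arrays, by group (x axis), with the mean and SD of 3 arrays beside the points. Within each stage the 3 deficient arrays lie above the 3 adequate arrays, and deficient replicate 2 is the lowest deficient array in both stages, at 7.97 (basophilic) and 8.16 (proerythroblast).

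The mean Cdkn1a value was 9.44 ± 1.16 in deficient proerythroblasts, against 6.67 ± 0.09 in adequate proerythroblasts (SD, n = 3 each), 6.79-fold higher. In limma's fit over all tested genes this was a log2 difference of 2.76 (SE 0.56, 95% interval 1.53 to 4.0, Benjamini-Hochberg adjusted p = 0.0177). Only 4 tested genes had a larger positive difference in that comparison. Of the 8 tested p53 genes, 2 rose, Cdkn1a and Eda2r, and none fell; over all tested genes 1.25% rose and 2.76% fell. Eda2r entered the test only through its deficient arrays, so this count is a description. The call was lost in 5 of the 12 fits that left out 1 array. The adjusted p was 0.0741, 0.0777 and 0.0508 without adequate proerythroblast replicate 1, 2 or 3, with differences of 2.72 to 2.81. It was 0.0615 without deficient proerythroblast replicate 1 and 0.0869 without deficient proerythroblast replicate 3.

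In basophilic erythroblasts the mean was 9.17 ± 1.07 on the deficient diet, against 7.39 ± 0.45 on the adequate diet (SD, n = 3 each), 3.43-fold higher. The log2 difference of 1.78 (SE 0.56, 95% interval 0.54 to 3.01) did not pass in limma (adjusted p = 0.461). It ranged from 1.35 to 2.38 in the fits that left out 1 array. The highest value was that without deficient basophilic replicate 2 (adjusted p = 0.0529), and without replicate 2 of both basophilic groups it was 2.12 (adjusted p = 0.104). None of the 8 p53 genes passed in this comparison, in which 0.0199% of all tested genes did. At an unadjusted limma p under 0.05 there were 4 of the 8 p53 genes (Cdkn1a, Eda2r, Ccng1 and Aen) and 1304 of all 20107. That count too is a description, as Eda2r entered through its deficient arrays. Within each stage, arrays of the same replicate number deviated together across the diets. Their r was 0.16 to 0.53 in proerythroblasts and 0.54 to 0.78 in basophilic erythroblasts. The numbers were therefore taken to pair the diets, which is an inference from these same values. A block on these numbers was chosen after seeing the data. With the replicate number as a block within each stage, Cdkn1a (adjusted p = 0.04996) and Ccng1 passed in basophilic erythroblasts, 2 of the 8, where 0.512% of all tested genes rose and 0.97% fell. In proerythroblasts the block left the 2 calls as they were, and 4.02% of all tested genes rose and 7.07% fell.

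Averaged over both stages, the diet difference in Cdkn1a was 2.27 (4.82-fold, SE 0.40, limma adjusted p = 0.0116). It passed without any single array and under all 23 alternatives run, with adjusted p at most 0.0418. An exact two-sided permutation test of the diet labels within each stage gave p = 0.005, the smallest that its 400 assignments can give. Those assignments ignore the replicate pairs. With the diets swapped only within the 6 same-numbered pairs, a test added after seeing the data, the exact two-sided permutation p was 0.0312. This is the smallest that 64 assignments can give. Any gene whose arrays do not overlap between the diets in either stage, with the same direction in both, gives both of these p-values. With higher deficient arrays such genes were 1.01% of all tested genes. Neither p-value was adjusted, and Cdkn1a was chosen with earlier results known, so both are descriptions. The limma average and both permutation tests take the stages as independent samples. If same-numbered arrays of the stages shared mice, which is not settled, these p-values would be too small. Within 1 stage, 3 arrays against 3 cannot go below 0.1, which both stages gave. Over both stages 2 of the 8 genes rose, against 0.95% of all tested genes, and these were again Cdkn1a and Eda2r. None fell, against 1.61% of all tested genes. Since Eda2r entered the test only through its deficient arrays, these counts are descriptions.

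Cdkn1a did not pass for stage on either diet. Its mean was 9.17 in basophilic erythroblasts against 9.44 in proerythroblasts on the deficient diet, a difference of -0.27 (95% interval -1.50 to 0.97, limma adjusted p = 0.693). In each same-numbered deficient pair the basophilic array was the lower one, at 10.03 against 10.43, 7.97 against 8.16 and 9.51 against 9.72. Without deficient basophilic replicate 2 the sign turned, to 0.33, and without deficient proerythroblast replicate 1 it was 0.23. The 3 adequate basophilic arrays all lay above the 3 adequate proerythroblast arrays, with a difference of 0.72 (95% interval -0.51 to 1.95, limma adjusted p = 0.284). With only the 6 adequate arrays in the fit, that difference passed at an adjusted p of 0.0211. The order of the group means was deficient proerythroblasts, deficient basophilic, adequate basophilic and adequate proerythroblasts, and the neighbours in the order whose arrays overlapped were the 2 deficient groups. The diet difference in basophilic erythroblasts minus that in proerythroblasts was -0.99 (95% interval -2.73 to 0.76, limma adjusted p = 0.934), a difference that was not detectable with these arrays.

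Markers of erythroid maturation also moved with diet in proerythroblasts. All 8 measured maturation markers rose in deficient proerythroblasts, where 1.25% of all tested genes did. Their mean was 11.11 to 11.34 in deficient proerythroblast arrays, against 9.68 to 9.95 in adequate proerythroblast arrays. Of the 4 tested progenitor markers, 3 fell, against 2.76% of all tested genes. The mean of the 5 measured progenitor markers was 6.82 to 7.01 in deficient proerythroblast arrays, against 7.89 to 8.06 in adequate proerythroblast arrays. In basophilic erythroblasts no maturation marker passed, and the values were 12.07 to 12.18 on the deficient diet against 12.07 to 12.14 on the adequate diet. Every deficient proerythroblast array had more Cdkn1a than every adequate basophilic array (8.16 or more against 7.66 or less) and a lower mean of the maturation markers. Diet and maturation markers moved together in proerythroblasts, and the part of maturation in the Cdkn1a difference was not tested. In sorted bulk samples a higher share of cells of a type and more RNA per cell cannot be told apart.

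Mdm2, on chromosome 10, is the ubiquitin ligase that restrains p53. Its promoter window (chr10:117710709-117711008, minus strand), shown as that of the gene which closes the p53 feedback loop, held 1 half-site, in capitals.

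Mdm2: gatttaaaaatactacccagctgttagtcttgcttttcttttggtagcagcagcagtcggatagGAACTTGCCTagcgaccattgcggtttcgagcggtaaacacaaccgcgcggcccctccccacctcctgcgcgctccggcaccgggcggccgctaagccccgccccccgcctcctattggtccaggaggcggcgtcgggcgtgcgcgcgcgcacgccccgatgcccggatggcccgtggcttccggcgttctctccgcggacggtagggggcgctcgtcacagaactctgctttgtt

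In basophilic erythroblasts Mdm2 had values of 8.75, 7.74 and 8.49 in deficient replicates 1, 2 and 3, against 8.02, 7.85 and 8.05 in adequate replicates 1, 2 and 3. In proerythroblasts it had 8.49, 8.23 and 8.35 in deficient replicates, against 8.11, 7.98 and 7.91 in adequate replicates. The proerythroblast arrays did not overlap between diets, and in basophilic erythroblasts deficient replicate 2 lay below every adequate array while the other deficient arrays lay above them all.

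The Mdm2 difference of 0.36 in proerythroblasts (SE 0.21, limma adjusted p = 0.569) and of 0.35 in basophilic erythroblasts (limma adjusted p = 0.926) did not pass. Neither did the average over both stages, 0.35 (adjusted p = 0.32). Without deficient basophilic replicate 2 the basophilic difference was 0.65 (adjusted p = 0.0326) and the average 0.50 (adjusted p = 0.00536). Without replicate 2 of both basophilic groups the basophilic difference was 0.58 (adjusted p = 0.0457), and the proerythroblast difference of 0.36 passed as well (adjusted p = 0.0375). Mdm2 differed by -0.03 between stages on each diet, the smallest stage differences of the 8 genes as deposited, though after quantile normalization they were 0.34 on the deficient diet and 0.26 on the adequate diet.

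Eda2r, on the X chromosome, encodes a receptor of the tumour necrosis factor family that binds ectodysplasin A2. Its window (chrX:97377160-97377459, minus strand) is shown beside that of Cdkn1a because the genes moved together across arrays, and it held no half-site. The capitals of the other windows are therefore absent here.

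Eda2r: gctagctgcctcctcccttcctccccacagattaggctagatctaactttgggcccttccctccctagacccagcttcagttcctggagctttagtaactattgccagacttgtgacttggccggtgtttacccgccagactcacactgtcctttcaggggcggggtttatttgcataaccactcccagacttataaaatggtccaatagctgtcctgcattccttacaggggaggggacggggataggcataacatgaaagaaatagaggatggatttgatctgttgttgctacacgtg

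This window held the letters TATAAA, as did 13.6% of all windows on either strand.

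Eda2r was dim. In basophilic erythroblasts it had values of 5.58, 5.09 and 5.44 in deficient replicates 1, 2 and 3, against 4.72, 4.79 and 4.74 in adequate replicates 1, 2 and 3. Its proerythroblast values were 5.80, 5.25 and 5.36 in deficient replicates, against 4.45, 4.33 and 4.29 in adequate replicates. All 6 deficient arrays lay above all 6 adequate arrays. It exceeded 5.3, the median of all values, on 4 arrays, all of them deficient, so it entered the test only through the diet in which it was higher.

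Eda2r rose in deficient proerythroblasts, averaging 5.47 ± 0.29 against 4.36 ± 0.08 in adequate proerythroblasts (SD, n = 3 each), a log2 difference of 1.11 (2.16-fold, SE 0.17, limma adjusted p = 0.00338). That call held under all 23 alternatives that kept the gene, while the stricter filter on dim features left it out. Since Eda2r entered the test only through its deficient arrays, its p-values are descriptions, those of the alternatives included. In basophilic erythroblasts the difference of 0.62 did not pass (SE 0.17, limma adjusted p = 0.321). Without deficient basophilic replicate 2 it was 0.76 (adjusted p = 0.0338), and without replicate 2 of both basophilic groups 0.78 (adjusted p = 0.0464). Averaged over both stages it rose by 0.87 (1.82-fold, SE 0.12, adjusted p = 0.00456). It was 4.75 in adequate basophilic erythroblasts against 4.36 in adequate proerythroblasts, a difference of 0.39 that did not pass (adjusted p = 0.0613).

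Fas, on chromosome 19, encodes the death receptor that Fas ligand engages, and was dim on all 12 arrays. It had values of 4.66, 4.75 and 4.74 in deficient basophilic replicates 1, 2 and 3, against 4.78, 4.73 and 4.42 in adequate basophilic replicates. In proerythroblasts it had 4.71, 4.66 and 4.56 in deficient replicates, against 4.33, 4.86 and 5.27 in adequate replicates. The groups overlapped, and with no filter on dim features the diet differences were 0.07 in basophilic erythroblasts and -0.18 in proerythroblasts (limma adjusted p = 0.973 and 0.999).

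A second feature carries the name Fas, but its identifier places it on chromosome 17, where RefSeq has no Fas, so it was set aside. It was brighter, with 6.66, 6.92 and 6.55 in deficient proerythroblast replicates, against 5.96, 5.99 and 5.92 in adequate proerythroblast replicates. In basophilic erythroblasts it had 6.41, 6.05 and 6.43 in deficient replicates, against 6.28, 6.24 and 6.11 in adequate replicates. Taken as Fas, it would rise by 0.75 in deficient proerythroblasts (SE 0.14, limma adjusted p = 0.0117) and differ by 0.09 in basophilic erythroblasts (adjusted p = 0.954). Which transcript it measures was not tested.

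**Figure D2:**
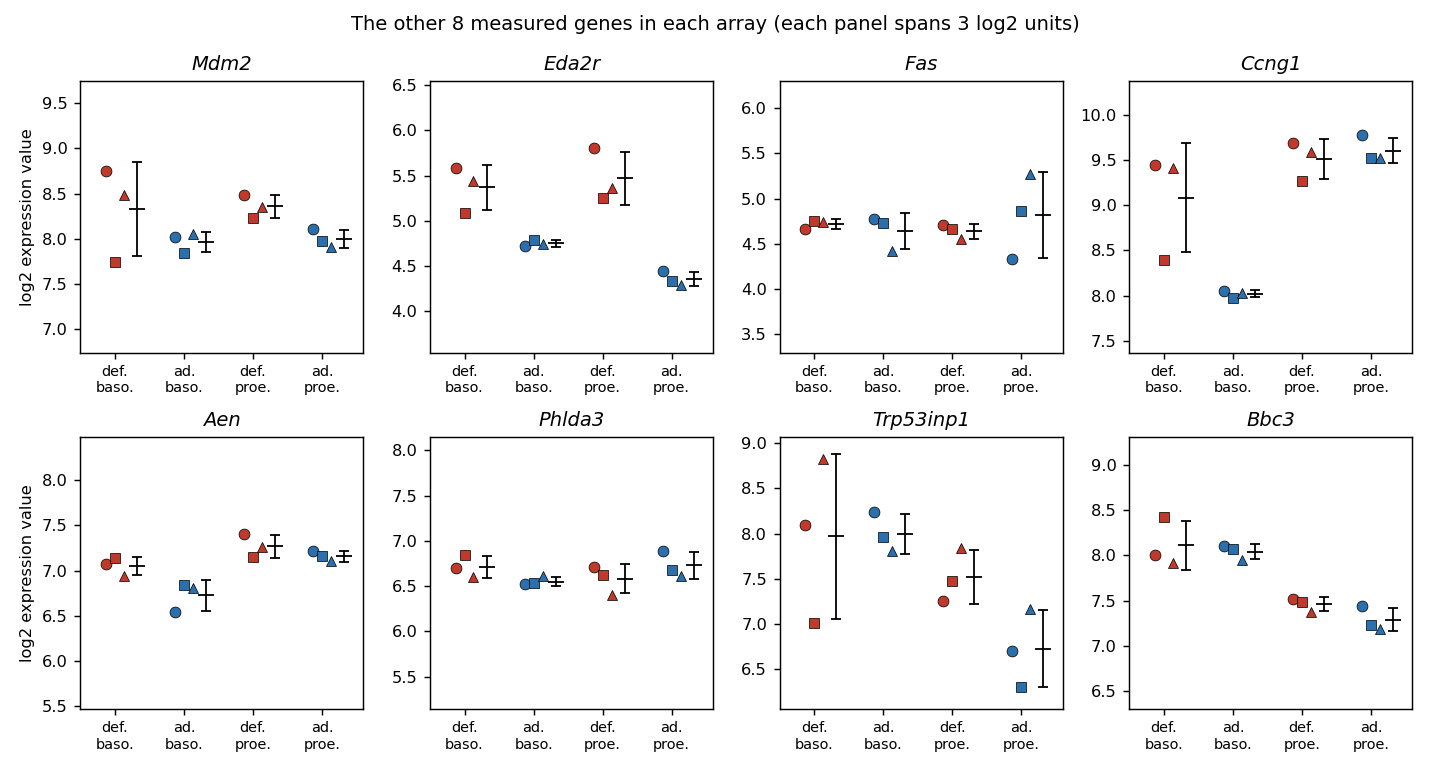
Log2 expression value (y axis, 3 log2 units a panel) of the other 8 measured genes in each array, by group (x axis; def., deficient; ad., adequate; baso., basophilic; proe., proerythroblast), with circles, squares and triangles for replicates 1, 2 and 3 and the mean and SD of 3 arrays beside them. The 6 deficient arrays of Eda2r lie above its 6 adequate arrays, and the adequate basophilic arrays of Ccng1, at 7.97 to 8.05, lie below all others.

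Ccng1, on chromosome 11, encodes cyclin G1, which joins protein phosphatase 2A to Mdm2. Its window (chr11:40755237-40755536, minus strand) held 1 half-site, in capitals, and is shown because Ccng1 had the largest stage difference of the 8 genes.

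Ccng1: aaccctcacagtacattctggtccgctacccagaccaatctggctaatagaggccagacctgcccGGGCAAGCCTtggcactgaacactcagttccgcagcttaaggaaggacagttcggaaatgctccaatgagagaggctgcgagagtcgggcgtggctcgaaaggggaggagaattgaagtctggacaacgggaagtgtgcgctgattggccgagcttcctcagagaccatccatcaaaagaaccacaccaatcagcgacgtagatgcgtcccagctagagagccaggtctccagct

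In basophilic erythroblasts Ccng1 had values of 9.44, 8.39 and 9.41 in deficient replicates 1, 2 and 3, against 8.05, 7.97 and 8.03 in adequate replicates 1, 2 and 3. Proerythroblast values were 9.68, 9.26 and 9.59 in deficient replicates, against 9.77, 9.52 and 9.52 in adequate replicates. The diets overlapped in proerythroblasts and did not in basophilic erythroblasts, where deficient replicate 2 came nearest to the adequate arrays.

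The stage difference of Ccng1 passed on the adequate diet. It fell in adequate basophilic erythroblasts, to 8.02 ± 0.04, against 9.60 ± 0.14 in adequate proerythroblasts (SD, n = 3 each), a log2 difference of -1.59 (SE 0.24, limma adjusted p = 3.81e-04) that passed under all 23 alternatives. On the deficient diet it averaged 9.08 ± 0.60 in basophilic erythroblasts, against 9.51 ± 0.22 in proerythroblasts, a difference of -0.43 that did not pass (SE 0.24, adjusted p = 0.141).

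The diet difference of Ccng1 was 1.06 in basophilic erythroblasts (2.09-fold, SE 0.24), which did not pass in limma (adjusted p = 0.215). With the replicate number as a block within each stage it passed (adjusted p = 0.0338), and so did the average over both stages, 0.49 (adjusted p = 0.0458, against 0.2 without the block), where 3.68% of all tested genes rose and 6.47% fell. Without deficient basophilic replicate 2 the basophilic difference was 1.41 (adjusted p = 0.00114), and after quantile normalization it was 1.09 (adjusted p = 0.0195). In proerythroblasts the difference was -0.09 (adjusted p = 0.998). The diet difference in basophilic erythroblasts minus that in proerythroblasts gave 1.16 (SE 0.34, 95% interval 0.41 to 1.90, limma adjusted p = 0.228), and no p53 gene passed there, against 0.303% of all tested genes. At an unadjusted limma p under 0.05 there was 1 of the 8, Ccng1, and 1839 of all 20107. Without deficient basophilic replicate 2 it was 1.50 and passed (adjusted p = 0.00561), and without replicate 2 of both basophilic groups it was 1.48 (adjusted p = 0.00721).

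**Figure D3:**
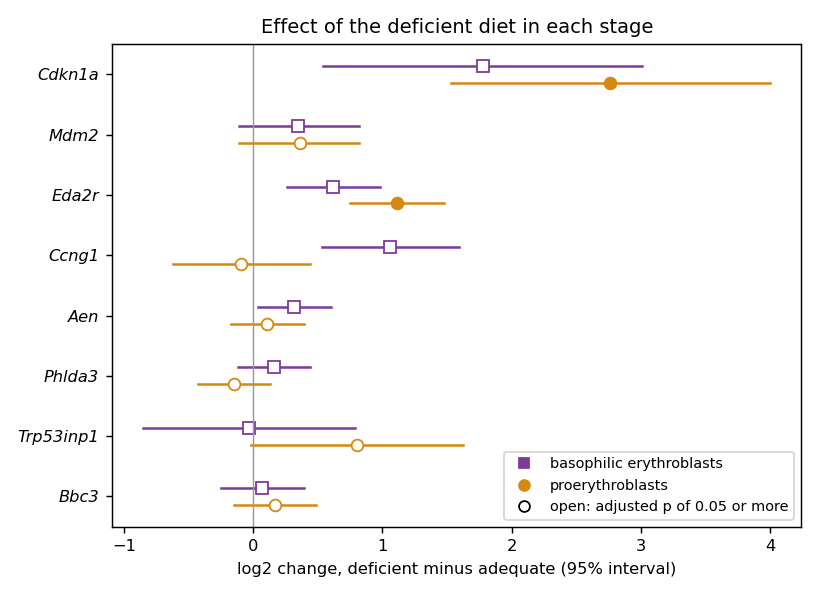
Log2 change, deficient minus adequate (x axis), of the 8 tested genes (y axis) in basophilic erythroblasts (squares) and proerythroblasts (circles), with 95% intervals from limma; filled symbols have an adjusted p under 0.05. Only Cdkn1a (2.76) and Eda2r (1.11) in proerythroblasts are filled, and Ccng1 lies at 1.06 in basophilic erythroblasts and -0.09 in proerythroblasts. Eda2r entered the test only through its deficient arrays.

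In all, 4 of the 8 tested genes had no overlap between diets, with higher deficient arrays, in proerythroblasts (Cdkn1a, Mdm2, Eda2r and Trp53inp1). The background was 15.5% of all tested genes. In basophilic erythroblasts there were also 4 (Cdkn1a, Eda2r, Ccng1 and Aen), against a background of 4.14%. Both stages together left 2, Cdkn1a and Eda2r, against 1.01%. Since Eda2r entered the test through its deficient arrays, these counts describe the genes and test nothing.

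Bbc3, on chromosome 7, encodes PUMA, a protein that triggers mitochondrial cell death by binding survival proteins of the BCL2 family. It had values of 8.0, 8.42 and 7.92 in deficient basophilic replicates 1, 2 and 3, against 7.52, 7.48 and 7.37 in deficient proerythroblast replicates. Adequate basophilic replicates had 8.10, 8.07 and 7.95, against 7.44, 7.23 and 7.19 in adequate proerythroblast replicates. All 6 basophilic arrays lay above all 6 proerythroblast arrays.

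Bbc3 rose with stage on both diets, by 0.66 on the deficient diet (1.58-fold, SE 0.15, limma adjusted p = 0.00742) and by 0.75 on the adequate diet (1.69-fold, SE 0.15, limma adjusted p = 0.00193). It was the only one of the 8 genes to pass for stage on the deficient diet, where 56% of all tested genes did. With only the deficient arrays in the fit that call was lost (adjusted p = 0.0512). Its diet differences of 0.17 in proerythroblasts and 0.07 in basophilic erythroblasts did not pass (limma adjusted p = 0.825 and 0.955).

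Trp53inp1, on chromosome 4, encodes a p53-induced nuclear protein that takes part in cell death and autophagy. On the adequate diet it had values of 8.24, 7.96 and 7.81 in basophilic replicates 1, 2 and 3, against 6.70, 6.31 and 7.17 in proerythroblast replicates. On the deficient diet it had 8.09, 7.01 and 8.82 in basophilic replicates, against 7.25, 7.48 and 7.84 in proerythroblast replicates. The stages did not overlap on the adequate diet and overlapped on the deficient diet through basophilic replicate 2.

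Trp53inp1 rose in adequate basophilic erythroblasts by 1.28 against adequate proerythroblasts (2.42-fold, SE 0.38, limma adjusted p = 0.0177). The call was lost without adequate proerythroblast replicate 1 (1.26, adjusted p = 0.05043) or replicate 2 (1.07, adjusted p = 0.0684) and after median centring (1.07, adjusted p = 0.0626). On the deficient diet the difference was 0.45 (adjusted p = 0.31), and without deficient basophilic replicate 2 it was 0.93 (adjusted p = 0.0248). The diet difference was 0.80 in proerythroblasts, whose arrays did not overlap (SE 0.38, limma adjusted p = 0.382), and -0.03 in basophilic erythroblasts (adjusted p = 0.993). Without deficient basophilic replicate 2 the basophilic value was 0.45 (adjusted p = 0.566).

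Aen, on chromosome 7, encodes an apoptosis-enhancing nuclease that cuts DNA. On the adequate diet it had values of 6.54, 6.84 and 6.81 in basophilic replicates 1, 2 and 3, against 7.22, 7.16 and 7.11 in proerythroblast replicates. On the deficient diet it had 7.07, 7.14 and 6.94 in basophilic replicates, against 7.41, 7.15 and 7.26 in proerythroblast replicates. Basophilic arrays lay below proerythroblast arrays on each diet, with no overlap.

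Aen fell in adequate basophilic erythroblasts, with a log2 difference of -0.43 (SE 0.13, limma adjusted p = 0.0176). The call was lost without adequate basophilic replicate 1 (-0.34, adjusted p = 0.0569), adequate proerythroblast replicate 1 (-0.40, adjusted p = 0.0607) or adequate proerythroblast replicate 2 (-0.43, adjusted p = 0.0522), and after quantile normalization (-0.30, adjusted p = 0.126). On the deficient diet the difference was -0.22 (adjusted p = 0.145). In basophilic erythroblasts the deficient arrays of Aen, at 6.94 to 7.14, all lay above the adequate arrays, at 6.54 to 6.84, a difference of 0.32 that did not pass (SE 0.13, limma adjusted p = 0.669). In proerythroblasts the diets overlapped (0.11, adjusted p = 0.938).

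Phlda3, on chromosome 1, encodes a small membrane-binding protein that holds back the kinase Akt. It had values of 6.70, 6.84 and 6.60 in deficient basophilic replicates 1, 2 and 3, against 6.52, 6.53 and 6.61 in adequate basophilic replicates. In proerythroblasts it had 6.71, 6.62 and 6.40 in deficient replicates, against 6.89, 6.68 and 6.61 in adequate replicates. It passed in none of the 6 comparisons, and its diet differences were 0.16 in basophilic erythroblasts and -0.15 in proerythroblasts (limma adjusted p = 0.955 and 0.828).

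**Figure D4:**
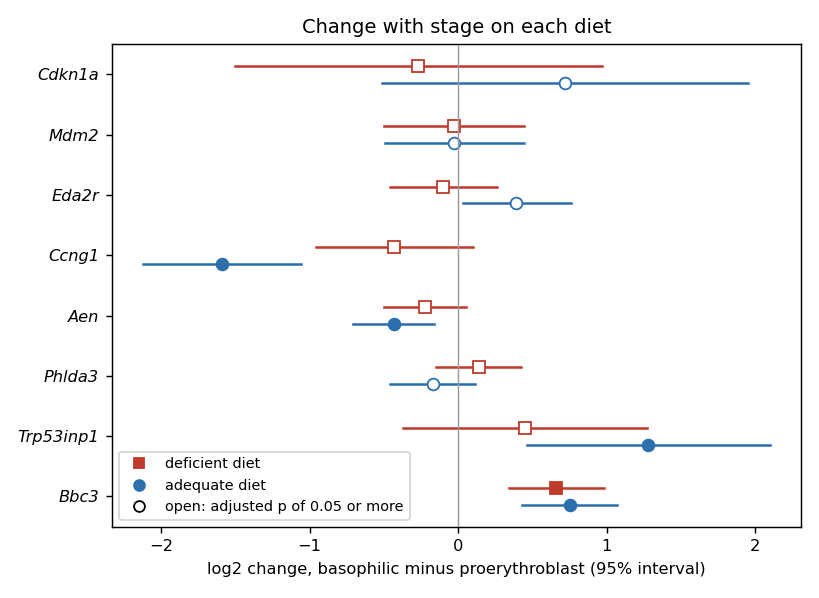
Log2 change, basophilic minus proerythroblast (x axis), of the 8 tested genes (y axis) on the deficient diet (squares) and the adequate diet (circles), with 95% intervals from limma; filled symbols have an adjusted p under 0.05. On the adequate diet Ccng1 (-1.59) and Aen (-0.43) lie below 0 and Trp53inp1 (1.28) and Bbc3 (0.75) above it, and on the deficient diet Bbc3 alone is filled.

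Across stages the p53 genes went both ways. On the adequate diet 2 of 8 rose (Trp53inp1 and Bbc3) and 2 fell (Ccng1 and Aen), against 28.7% and 25.6% of all tested genes. On the deficient diet 1 rose and none fell, against 31.1% and 24.9% of all tested genes. These shares of the p53 genes lie at or below the background. Array medians were higher in basophilic than in proerythroblast arrays by 0.19 on the deficient diet and 0.21 on the adequate diet. With each array centred on its median, 1 of the 8 rose and 1 fell on the deficient diet (Bbc3 and Aen), where 3489 of all tested genes rose and 6035 fell, against 6260 and 5009 as deposited. On the adequate diet 1 rose (Bbc3) and 3 fell (Ccng1, Aen and Phlda3), where 2152 of all tested genes rose and 6033 fell, against 5767 and 5141 as deposited.

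The genes most like Cdkn1a in their pattern over the 12 arrays were ranked by Pearson's r among the other 20106 tested genes, as a description. The highest r was 0.958 for Tnfrsf13c, which encodes the receptor of B cells for the survival factor BAFF. Eda2r came next, at 0.952, then Retnlg (0.946), Rnf19b (0.930), Clec4d (0.921) and Noct (0.920), and 8 genes in all exceeded 0.9. Retnlg and Clec4d were dim on the adequate diet, averaging 4.35 and 4.68 in proerythroblasts and 4.67 and 4.92 in basophilic erythroblasts. Like Eda2r, they passed the filter at 5.3 only through deficient arrays, which favours a high r with Cdkn1a. Because the diets form separate clusters, r was also taken within each diet. Each such r pools the 2 stages, so stage differences enter it. On the adequate diet the Cdkn1a arrays of the 2 stages do not overlap. For Eda2r the r within a diet was 0.92 over the 6 deficient arrays and 0.71 over the 6 adequate arrays. For Retnlg these were 0.93 and 0.92, for Tnfrsf13c and for Noct 0.87 and 0.87, for Rnf19b 0.79 and 0.96, and for Clec4d 0.81 and 0.58.

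Among the other p53 genes, Mdm2 was at 0.834 over all 12 arrays (rank 52), with 0.83 over the 6 deficient arrays and 0.27 over the 6 adequate ones. Ccng1 was at 0.322, with 0.82 over the deficient arrays and -0.78 over the adequate ones. Trp53inp1 was at 0.488, Aen at 0.317, Bbc3 at 0.134 and Phlda3 at -0.178. In the deficient diet Cdkn1a, Mdm2, Eda2r and Ccng1 had the same order of replicates in both stages, with replicate 1 highest and replicate 2 lowest.

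**Figure D5:**
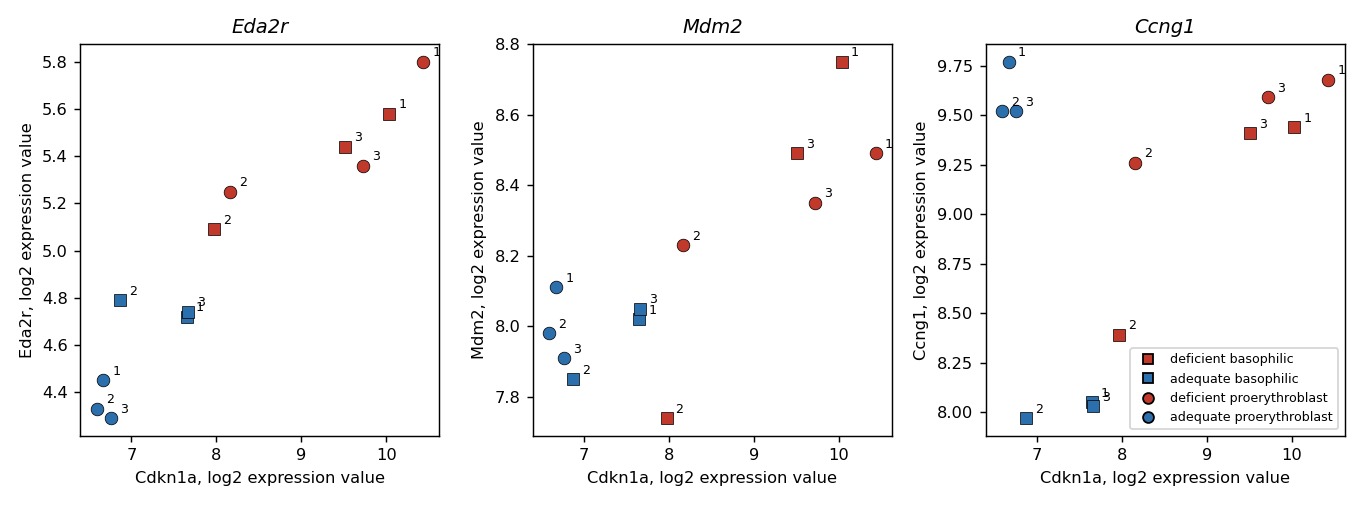
Log2 expression value of Eda2r, Mdm2 and Ccng1 (y axes) against that of Cdkn1a (x axes) in the 12 arrays, coloured by diet, shaped by stage and numbered by replicate. Eda2r follows Cdkn1a over all arrays (r = 0.952), while the adequate proerythroblast arrays, low in Cdkn1a at 6.59 to 6.76, are among the highest in Ccng1 at 9.52 to 9.77.

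Retnlg and Clec4d are known as genes of myeloid cells, so the neutrophil markers are given beside them. In basophilic erythroblasts these markers averaged 6.78, 6.51 and 6.71 in deficient replicates 1, 2 and 3, against 6.43, 6.08 and 6.21 in adequate replicates. None of 12 passed there. In proerythroblasts they averaged 7.85, 7.14 and 8.05 in deficient replicates 1, 2 and 3, against 7.33, 6.78 and 8.09 in adequate replicates, and 1 of 12 passed. Over both stages 1 of 12 passed, Mmp9 (0.43, SE 0.10, limma adjusted p = 0.0396). Of all tested genes 1.25% rose in proerythroblasts, 0.95% rose over both stages, and 0.0199% passed in basophilic erythroblasts. In each group replicate 2 had the lowest neutrophil marker mean and the lowest Cdkn1a value. The array with the most neutrophil marker signal, adequate proerythroblast replicate 3, had Cdkn1a at 6.76. B cell markers, given beside Tnfrsf13c, averaged 7.21 to 7.81 in deficient proerythroblasts against 7.08 to 8.36 in adequate proerythroblasts, and none of 5 passed. The part of these markers in the values of Cdkn1a was not tested.

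Other p53 targets and related lists were described by counts. Among all tested genes, the share that rose and the share that fell were 1.25% and 2.76% for diet in proerythroblasts, and 0.95% and 1.61% for diet over both stages. They were 31.1% and 24.9% for stage on the deficient diet, and 28.7% and 25.6% for stage on the adequate diet. The replicate block within each stage was chosen after seeing the data. With it these shares were 4.02% and 7.07% for diet in proerythroblasts and 0.512% and 0.97% in basophilic erythroblasts. Over both stages they were 3.68% and 6.47%. The list counts below are to be read against these shares, and none of them was tested against them.

 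Of 28 tested, 1 rose in deficient proerythroblasts and none fell, with a median difference of 0.08 against 0.02 over all tested genes. The gene that rose was Gadd45a, a growth arrest gene induced by DNA damage (0.81, SE 0.19, limma adjusted p = 0.0362). It passed in 5 of 12 fits that left out 1 array, and the highest adjusted p was 0.175, without deficient proerythroblast replicate 3. With the replicate block within each stage 4 of the 28 rose, Gadd45a, Ppm1d (adjusted p = 0.00256), Btg2 (0.80, adjusted p = 0.00307) and Sesn1 (adjusted p = 0.0142). Without the block Ppm1d, a phosphatase that switches p53 off, differed by 0.81 (adjusted p = 0.0661), Sesn1, a stress sensor upstream of mTOR, by 0.94 (adjusted p = 0.204), and Ddb2, a DNA repair gene, by -0.36 (adjusted p = 0.21).

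In basophilic erythroblasts none of the 28 passed in limma, with or without the block or at an unadjusted p under 0.05, with a median of 0.01 against 0.04 over all tested genes. The 4 smallest adjusted p were those of Apaf1 (-0.47), Dcxr (0.30), Rrm2b (0.24) and Ddit4 (0.28), from 0.766 to 0.928 in limma. With stage, 4 rose and 5 fell on the deficient diet, and 7 rose and 6 fell on the adequate diet, shares of the 28 below those of all tested genes. Over both stages none passed without the block. With it Gadd45a (0.51, adjusted p = 0.0122) and Ppm1d (0.35, adjusted p = 0.0238) rose, and Apaf1 (-0.37, adjusted p = 0.0282) and Pml (-0.37, adjusted p = 0.0374) fell. Gadd45a rose by 1.44 on the deficient diet (limma adjusted p = 5.07e-04) and by 2.04 on the adequate diet (adjusted p = 1.23e-05), and Rps27l, a ribosomal protein paralogue, fell on both (-0.95 and -1.08).

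Among 17 tested regulators of p53, 1 rose and 2 fell in deficient proerythroblasts. The kinases Atm (-1.18, SE 0.14, limma adjusted p = 0.00105) and Atr (-0.83, SE 0.16, adjusted p = 0.0123), which signal DNA damage to p53, fell, and Hipk2, a kinase that phosphorylates p53, rose (1.20, SE 0.27, adjusted p = 0.0287). Atm passed in all 12 fits that left out 1 array, Atr in 9 (highest adjusted p 0.0687, without adequate proerythroblast replicate 2) and Hipk2 in 6 (highest 0.103, without adequate proerythroblast replicate 1). With the replicate block within each stage Trp53bp1, a DNA damage adaptor that binds p53, rose too (0.93, adjusted p = 0.00233, against 0.0808 without the block). In basophilic erythroblasts none passed, with or without the block, and 1 had an unadjusted p under 0.05. Atm differed there by -0.18 (limma adjusted p = 0.955). Both Atm and Atr also fell with stage, Atm by 1.02 on the deficient diet and 2.02 on the adequate diet, Atr by 1.39 and 2.4.

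Of 7 inhibitors of cyclin-dependent kinases other than Cdkn1a, 1 rose in deficient proerythroblasts, Cdkn2d (1.44, SE 0.32, limma adjusted p = 0.0281). It encodes p19INK4d. The call held in 6 of 12 fits that left out 1 array. Its highest adjusted p was 0.128, without deficient proerythroblast replicate 3. Cdkn1b, which encodes p27, differed by 0.59 (adjusted p = 0.0703). With the replicate block within each stage 4 rose, Cdkn2d, Cdkn1b (adjusted p = 0.00755), Cdkn3 (1.03, adjusted p = 0.00919) and Cdkn2c (0.78, adjusted p = 0.0128). In basophilic erythroblasts none passed without the block (1 at an unadjusted limma p under 0.05), and Cdkn1b (-0.51) and Cdkn2d (-0.58) had the opposite sign to Cdkn1a. With the block Cdkn1b fell there (adjusted p = 0.04999). With stage on the adequate diet 5 of the 7 rose, against 28.7% of all tested genes, among them Cdkn2d by 2.78 and Cdkn1b by 2.03, and none fell. For stage on the deficient diet 3 of the 7 rose, against 31.1%, and none fell. For Cdkn1a the stage difference was 0.72 on the adequate diet and -0.27 on the deficient diet, and neither passed in the fit over all arrays.

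Of 10 tested cyclins and kinases that p21 binds, Cdk6 fell in deficient proerythroblasts (-1.36, SE 0.20, limma adjusted p = 0.00286) and none rose. Cdk6 also stands among the progenitor markers. With the replicate block within each stage Cdk4 (-1.05, adjusted p = 0.00405) fell too, and Ccnd3 (0.52, adjusted p = 0.0278) and Ccne2 (0.59, adjusted p = 0.0445) rose. None passed in basophilic erythroblasts without the block (3 at an unadjusted limma p under 0.05), and with it Ccnd2 rose (1.14, adjusted p = 0.0367). Averaged over both stages Cdk6 (-0.63, adjusted p = 0.036) and Cdk4 (-0.87, adjusted p = 0.0425) fell, in 3 and 4 of 12 fits that left out 1 array (highest adjusted p 0.104 and 0.118). None of 11 tested genes known to be repressed through p21 and the DREAM complex passed in any diet comparison in limma without the block, and none had an unadjusted p under 0.05, with median differences of 0.34 in proerythroblasts and -0.49 in basophilic erythroblasts. With the block Mybl2, a cell cycle transcription factor, rose in deficient proerythroblasts (0.69, adjusted p = 0.0184).

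The interaction, the diet difference in basophilic erythroblasts minus that in proerythroblasts, passed for no gene of these 5 lists without the block. With the block within each stage, 1.52% of all tested genes were higher and 1.43% lower in it. Of the DREAM genes 3 of 11 were lower, Birc5 (-0.94, adjusted p = 0.0263), Mybl2 (-0.97, adjusted p = 0.046) and Kif23 (-1.0, adjusted p = 0.0484). Of the CDK inhibitors 3 of 7 were lower, Cdkn2d (-2.02, adjusted p = 0.00562), Cdkn1b (-1.10, adjusted p = 0.0116) and Cdkn3 (-1.39, adjusted p = 0.0347). Of the other p53 targets 2 of 28 were lower, Btg2 (-1.16, adjusted p = 0.0143) and Ppm1d (-0.92, adjusted p = 0.0251). Of the regulators Atm (0.99, adjusted p = 0.0217) and Atr (1.01, adjusted p = 0.0306) were higher and Hipk2 (-0.97, adjusted p = 0.034) lower. Of the cyclins and kinases Cdk6 (1.46, adjusted p = 0.0219) was higher, and Ccnd3 (-0.91, adjusted p = 0.0358) and Ccne2 (-1.15, adjusted p = 0.0367) were lower.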

How the data were processed

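Biotin-labelled total RNA of 12 sorted samples was measured on 1 array each. The log2 expression values were deposited by the authors and made with Affymetrix Expression Console, per the submitters' processing notes; the normalization is not given in the sources used here, and array medians differed between groups by up to 0.21. No further normalization was applied. Precision is limited by the 3 arrays a group.

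Of 72688 features, 31258 named 1 gene. Symbols were updated for 1789 features through RefSeq, and 102 (0.328% of those with both chromosomes known) were set aside because their identifier names another chromosome than RefSeq gives. The feature with the highest mean stood for a gene. Genes above 5.3, the median of all values, on at least 3 arrays were tested with limma 3.58.1 in R 4.3.3 (1 mean per group, eBayes defaults) with Benjamini-Hochberg adjustment over 20107 genes and a threshold of 0.05; python 3.11.15 prepared the tables. The fit was run on simulated data with independent noise and the same spread in every group, and only its mean estimates were checked. Unequal spreads between groups, as in Cdkn1a, were not simulated. Only genes past the threshold are said to have risen or fallen.

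Samples were grouped by title. Same-numbered arrays of the 2 diets deviated together (r 0.16 to 0.53 in proerythroblasts, 0.54 to 0.78 in basophilic erythroblasts), those of the 2 stages did so less (0.09 to 0.25 on the deficient diet, -0.16 to 0.2 on the adequate diet). With every r over 0.1 required, the numbers were taken to pair the diets within a stage and not the stages. On the deficient diet the stages missed this narrowly, with 0.25, 0.19 and 0.09 for the same numbers, against at most 0.04 for different numbers. Whether same-numbered arrays of the stages share mice is therefore not settled. The genes and all lists were chosen with earlier results of these data known. Named were every p53 gene, the 6 named genes most like Cdkn1a by r, and from each list at most 4 genes, those of lowest adjusted p. List genes named only with a replicate block were added after their values were seen. Promoter windows are from RefSeq (GRCm38.p6); 9 of the 10 genes had at least 1, 13 windows in all, of which 6 held a half-site. Alternatives were no filter and a filter at 6.62, 2 rescalings (quantiles and medians), a trended robust variance, array weights, replicate blocks, feature means, a fit on only the contrasted arrays, and dropping each array.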

Additional observations from a re-analysis of the deposited data

How the results depend on the processing

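With 3 arrays a group, single arrays moved several calls. The cause of the shifts below was not tested. Of the 8 tested p53 genes, 2 passed for diet in proerythroblasts, against 1 under the stricter filter, which leaves Eda2r out, 5 with array weights, whose estimation did not converge and with which 3771 of all tested genes rose and 4235 fell, and 1 to 2 without 1 array. Without the chromosome check, also an alternative chosen after seeing the data, there were 3, with Fas. In basophilic erythroblasts 0 passed, against 1 after quantile normalization, 1 with array weights (114 rose and 41 fell of all tested genes) and 0 to 3 without 1 array. Over both stages 2 passed, against 1 under the stricter filter, 3 after quantile normalization, with Ccng1 (0.48, adjusted p = 0.0432), 5 with array weights (1067 and 1395 of all tested genes) and 2 to 4 without 1 array. For stage on the deficient diet 1 passed, against 2 after median centring, 3 with array weights, 0 with only the contrasted arrays and 1 to 2 without 1 array. On the adequate diet 4 passed, against 3 after quantile normalization, 6 with only the contrasted arrays, among them Eda2r (0.39, adjusted p = 0.0123), 5 with array weights, 5 with the block across all arrays and 2 to 5 without 1 array. For the interaction 0 passed, against 1 with array weights (341 and 147 of all tested genes) and 0 to 1 without 1 array. Chosen after seeing the data was the fit without replicate 2 of both basophilic groups, where 3 passed in basophilic erythroblasts, 4 over both stages, 2 and 5 for stage on the deficient and adequate diets, 3 in proerythroblasts and 1 for the interaction. In that without the chromosome check 2 passed for stage on the deficient diet.

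A replicate block across all 12 arrays, whose numbers were not taken to pair the stages, left the call of Cdkn1a in proerythroblasts (adjusted p = 0.00219). It added Eda2r for stage on the adequate diet (0.39, adjusted p = 0.0377). The block within each stage, also chosen after seeing the data, gave 2 calls in basophilic erythroblasts, Cdkn1a (1.78, adjusted p = 0.04996) and Ccng1, and Ccng1 over both stages. It changed no other call of the 8 genes. Over all tested genes 2 rose and 2 fell in basophilic erythroblasts, against 27 and 23 after quantile normalization, 0 and 0 after median centring, and 103 and 195 with that block. For the interaction 32 and 29 became 7 and 16 after quantile normalization. For diet in proerythroblasts 251 and 555 became 166 and 831 after median centring.

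Without 1 array Cdkn1a ranged from 2.27 to 3.40 in proerythroblasts and from 1.35 to 2.38 in basophilic erythroblasts. With only the contrasted arrays its stage difference on the adequate diet passed (0.72, adjusted p = 0.0211).

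Signs also turned, and no value below with a turned sign passed. After quantile normalization, the stage difference on the deficient diet was 0.08 for Cdkn1a, 0.34 for Mdm2 and 0.003 for Aen. That of Mdm2 on the adequate diet was 0.26, the diet average of Phlda3 -0.004, and the interactions 0.08 for Mdm2 and 0.03 for Bbc3. After median centring, the diet average of Phlda3 was -0.07, its stage difference on the deficient diet -0.06 and the Mdm2 interaction 0.01. With array weights, the basophilic diet difference was 0.55 for Trp53inp1 and -0.14 for Bbc3, and the diet averages -0.11 for Phlda3 and -0.03 for Bbc3. The stage differences on the deficient diet were 0.12 for Mdm2 and 0.04 for Eda2r, and the Mdm2 interaction was 0.14. Without replicate 2 of both basophilic groups, the basophilic diet difference was 0.43 for Trp53inp1 and -0.07 for Bbc3, and the diet average of Phlda3 was -0.03. Stage differences on the deficient diet were 0.33 for Cdkn1a, 0.26 for Mdm2 and 0.04 for Eda2r. That of Mdm2 on the adequate diet was 0.03 and its interaction 0.23.

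Without 1 array, diet differences ranged from -0.18 to 0.03 for Ccng1 in proerythroblasts, from -0.45 to 0.45 for Trp53inp1 and from -0.08 to 0.17 for Bbc3 in basophilic erythroblasts, and from -0.03 to 0.05 for the average of Phlda3. Stage differences on the deficient diet ranged from -0.90 to 0.33 for Cdkn1a, from -0.24 to 0.26 for Mdm2 and from -0.21 to 0.07 for Eda2r. For Mdm2 the stage difference on the adequate diet ranged from -0.07 to 0.03 and the interaction from -0.22 to 0.29.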

Other observations

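Trp53cor1, the gene of lincRNA-p21, a p53-induced long RNA made upstream of Cdkn1a, was looked up after the other values had been seen. It had values of 6.80, 7.07 and 6.33 in deficient basophilic replicates 1, 2 and 3, against 6.58, 6.80 and 6.48 in adequate basophilic replicates. In proerythroblasts it had 6.20, 6.17 and 5.86 in deficient replicates, against 6.22, 6.01 and 6.14 in adequate replicates. The diets overlapped in both stages, unlike those of Cdkn1a.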
